A study of Rattus norvegicus with 6 samples.

Results

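Cells make nicotinamide adenine dinucleotide (NAD) from several precursors, and 10 genes of its synthesis and use were examined in hearts of a hypertensive rat strain and of a congenic derivative. The set was built around Nmrk2, a nicotinamide riboside kinase of striated muscle, which was chosen by its higher signal in the congenic arrays of this same comparison. Its own difference is therefore given as a description without a test. The others, Nmrk1, Nampt, Nmnat1, Nmnat3, Nadk, Sirt1, Sirt3, Parp1 and Nnt, were taken as parts of the same pathway. Of the 10 genes, 9 had a probe set annotated to exactly 1 gene, with 11 such probe sets among the 31042 tested, and Sirt1 is not analysed here.

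The arrays compared male Dahl S rats, an inbred line with salt-sensitive hypertension, with male rats of the congenic strain S.LEW(10)x12x2x3x5, which carries a Lewis (LEW) segment of chromosome 10 on the Dahl S background. All rats were 53 days old, had been weaned at 30 days and ate a low-salt diet (0.3%), so that no group was salt-loaded. Each strain gave 3 Affymetrix rat expression chips, each of whole-heart RNA pooled from 2 of 6 animals, so an array averages over a pair of rats and gives no value for a single animal. How far the Lewis segment reaches is not stated in the sources used here. In the GRCr8 annotation none of the 10 genes lies on chromosome 10 (Nmrk2 is on chromosome 7).

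NAD carries electrons between fuel oxidation and the respiratory chain, and the heart, which turns over much ATP, holds a large pool of it. Most NAD in the heart is rebuilt from nicotinamide by Nampt, the rate-limiting salvage enzyme, whose product is joined to ATP by the Nmnat enzymes. The Nmrk kinases feed the same Nmnat step from nicotinamide riboside and so bypass Nampt. Sirtuins and PARPs split NAD and release nicotinamide, Nadk phosphorylates NAD to NADP, and Nnt moves reducing power between NADH and NADPH in the mitochondrion. In failing and energy-starved heart muscle Nmrk2 is known to increase, often beside a fall in Nampt. Whether the higher Nmrk2 signal came with differences in Nampt or in NAD consumers was asked of these arrays.

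Heart muscle markers were high on every array, as the tissue label says: all 8 measured of 9 listed, among them Myh6, Tnnt2 and Myl2, were brighter than the median probe set, and their strain differences ran from -0.05 to 0.01 on the log2 scale. Of these 8, 7 lay below 0. Their summed linear signal ran from 176660 to 179072 in Dahl S and, without overlap, from 173751 to 175057 in the congenic. Because Nmrk2 is also a skeletal muscle gene, 14 markers of that tissue were listed. Of the 13 measured, 10 were dimmer than the median probe set, including the fast-fibre genes Actn3 and Myh4 and the myogenic factors Myod1 and Myf6, and the 3 brighter ones were Myh1, Casq1 and Mybpc2. The differences of the 13 ran from -0.14 to 0.16 with a median of -0.01, and 0 had an unadjusted p under 0.05 in limma. Their summed linear signal, most of it from Myh1 alone, ran from 11162 to 11756 in Dahl S and from 10932 to 11416 in the congenic. The Myh1 probe set had a mean of 13.26, against 4.43 for Myh2 and 3.44 for Myh4. What it reads in heart was not tested, so the sum is no measure of skeletal muscle content. A pair of arrays, Dahl S array 3 and congenic array 2, had a mean hybridization-control level of 11.54 and 11.55 (log2, from transcripts spiked into the sample) against 10.67 to 10.83 on the other 4. Markers of some other cell types had higher means in the congenic. Fibroblast markers were above 0 in 7 of 7, with a summed signal of 43443 to 47469 in Dahl S and 48152 to 55128 in the congenic, and erythroid markers in 5 of 5, with 23580 to 28021 and 28748 to 29523. Macrophage markers were above 0 in 5 of 6, with sums that overlapped (1547 to 1839 and 1765 to 2021). Endothelial markers were above 0 in 4 of 4, also with overlapping sums (6161 to 6483 and 6472 to 6751). The part of these markers, and of the heart and skeletal muscle markers, in the Nmrk2 difference was not tested. Adipocyte and lymphocyte markers varied between pools by more than between strains. With each adipocyte marker centred on its own mean, the marker mean ran from -0.59 to 0.57 in Dahl S and from -0.32 to 0.41 in the congenic.

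The promoters of the kinase pair are printed because both enzymes catalyse the same reaction. Their mean differences had opposite signs, but Nmrk2 was chosen by its higher signal and Nmrk1 did not pass (limma adjusted p = 0.744). Each window holds 250 bases before and 50 after the start annotated by RefSeq in GRCr8, at chr7:9165317-9165616 (plus strand) for Nmrk2 and chr1:225475812-225476111 (plus strand) for Nmrk1. Capitals mark E-box letters (CANNTG, a hexamer that muscle and other basic helix-loop-helix factors can bind) and the TATA-box letters TATAAA, searched on both strands.
Nmrk2: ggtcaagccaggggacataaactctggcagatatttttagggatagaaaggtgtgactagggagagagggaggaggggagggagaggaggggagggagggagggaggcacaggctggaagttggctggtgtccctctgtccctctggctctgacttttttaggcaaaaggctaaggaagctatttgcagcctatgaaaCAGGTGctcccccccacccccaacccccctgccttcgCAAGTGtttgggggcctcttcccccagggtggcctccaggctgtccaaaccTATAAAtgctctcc
Nmrk1: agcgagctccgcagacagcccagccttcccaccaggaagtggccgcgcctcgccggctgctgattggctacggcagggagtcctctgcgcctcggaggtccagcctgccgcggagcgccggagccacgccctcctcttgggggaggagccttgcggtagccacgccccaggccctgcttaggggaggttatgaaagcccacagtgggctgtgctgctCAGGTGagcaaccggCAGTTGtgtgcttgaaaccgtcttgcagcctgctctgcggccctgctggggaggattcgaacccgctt
The Nmrk2 window held 1 CpG and 57.3% G+C, and 13.6% of the 33469 promoter windows in the table have no more CpGs than that. The windows of 7 other members held 19 to 47 CpGs, with 21 in Nmrk1, against a median of 7 over the whole table. Nmrk2 was also the only one of these 8 windows with TATAAA, which 14.2% of all windows hold. It begins at base 37 of the annotated transcript, downstream of a start that rests on a predicted model. Both kinase windows held 2 E-box hexamers, and 72.1% of all windows hold at least 1. The form CACGTG, bound by clock and Myc-type factors, was found in the Sirt1 and Nnt windows and in 6.42% of all windows. These matches are a description of the letters in the windows and were not tested for binding.

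Nmrk2 signal was 9.57, 9.58 and 9.50 on Dahl S arrays 1, 2 and 3 and 10.04, 10.01 and 10.05 on congenic arrays 1, 2 and 3 (log2 expression). The strains did not overlap: 0.43 separated the nearest arrays, while those of a strain lay within 0.07 (Dahl S) and 0.05 (congenic) of each other. The Dahl S mean was 9.55 ± 0.04 and the congenic mean 10.03 ± 0.02 (SD, n = 3 per strain). The signal was 1.40-fold higher in the congenic (log2 difference 0.48, SE 0.05, congenic minus Dahl S). Over all probe sets, 5.83% separated the strains in this direction, and 40 had a difference at least as large as that of Nmrk2. Limma called 11 probe sets, 0.0354% of those tested, at an adjusted p under 0.05 (5 to 6 with any 1 array left out). Nmrk2 was not among them, and its adjusted p of 0.0597, one of the values that chose the gene, supports nothing further here. Taken within the hybridization-control levels, the difference was 0.47 over the 4 low arrays and 0.50 for the high pair. In bulk tissue, more RNA per cell cannot be told apart from more of the cells that express a gene.

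**Figure D1:**
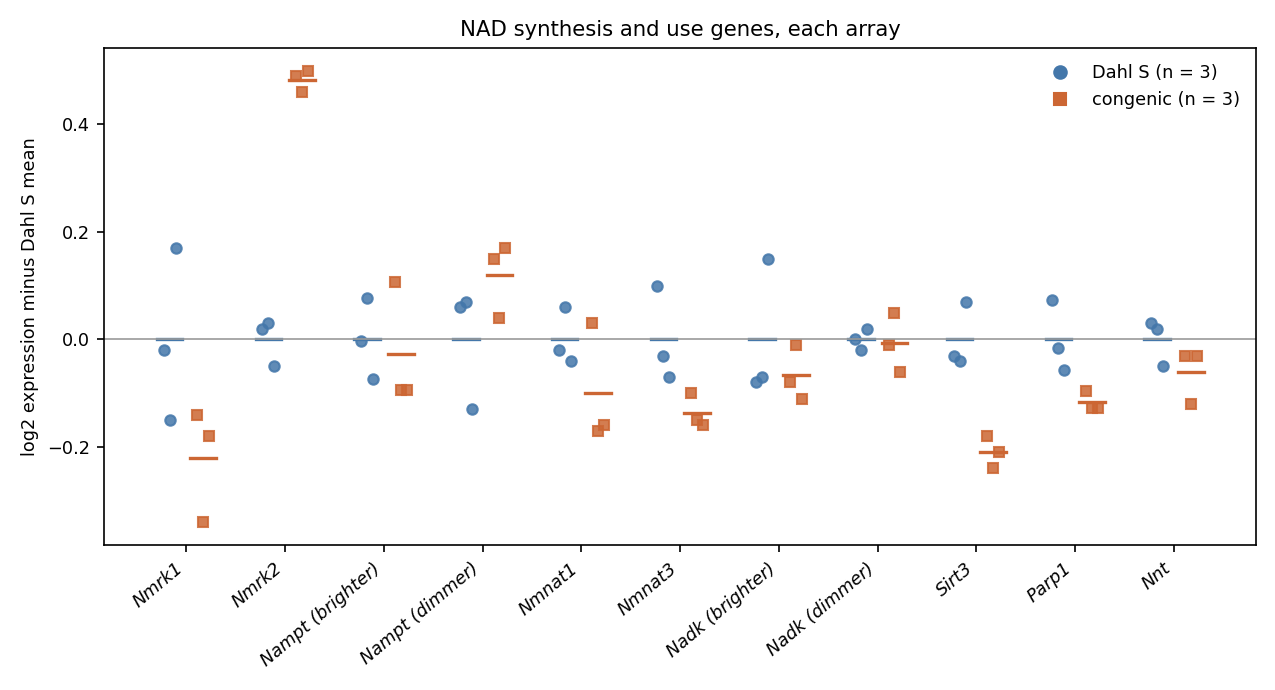
Log2 expression of each of the 11 probe sets on each array, minus that probe set's Dahl S mean. Circles are the 3 Dahl S arrays, squares the 3 congenic arrays, and short lines the strain means. Nmrk2 stands alone near 0.48, and the other congenic means lie between -0.22 and 0.12.

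Genes beside Nmrk2 on chromosome 7 did not share its difference in size. Among the 5 measured genes on either side of Nmrk2 in GRCr8 annotation order, the log2 differences ran from -0.11 to 0.19. The highest belonged to Matk, a tyrosine kinase gene read by a dim probe set (mean 5.05, log2 difference 0.19), and of the 10 neighbours 1, Matk, had an unadjusted p under 0.05 in limma, against 6.67% of all probe sets. The genes directly beside Nmrk2, Atcay and Dapk3, had log2 differences of -0.06 and -0.01.

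The other riboside kinase, Nmrk1, which is expressed in most tissues, had a lower mean in the congenic. It read 5.95, 5.82 and 6.14 on Dahl S arrays 1, 2 and 3 and 5.83, 5.63 and 5.79 on congenic arrays 1, 2 and 3. The strains overlapped narrowly, since congenic array 1 lay just above Dahl S array 2. The log2 difference was -0.22 (SE 0.09, 95% interval -0.44 to -0.01) and did not pass (limma adjusted p = 0.744). This probe set is dim, since the median mean signal over all probe sets was 6.55. The array pair of high hybridization-control level gave -0.51 and the other 4 arrays -0.08.

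For Nampt no strain difference was detected. Its brighter probe set read 8.38, 8.46 and 8.31 in Dahl S and 8.49, 8.29 and 8.29 in the congenic, with the strains overlapping over most of their range. The log2 difference was -0.03 (SE 0.08, 95% interval -0.21 to 0.15, limma adjusted p = 0.961). A fall or rise of the size seen for Nmrk2 lies outside that interval, while a change of up to 0.21 downward lies within it. The dimmer probe set read 5.91, 5.92 and 5.72 in Dahl S and 6.00, 5.89 and 6.02 in the congenic, a log2 difference of 0.12 (95% interval -0.05 to 0.29, limma adjusted p = 0.811). The probe sets thus differed in sign and neither passed.

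The Nmnat enzymes make the final dinucleotide from the products of Nampt and of the kinases. Nmnat1 and Nmnat3 had slightly lower means in the congenic without passing, while the third, Nmnat2, known mainly from neurons, was dim and differed by 0.07 with overlapping strains. Nmnat3, usually placed in mitochondria, read 8.19, 8.06 and 8.02 in Dahl S and 7.99, 7.94 and 7.93 in the congenic. Its strains did not overlap, and the log2 difference was -0.14 (95% interval -0.28 to 0.01, limma adjusted p = 0.769). Nmnat1, the nuclear enzyme, read 8.04, 8.12 and 8.02 against 8.09, 7.89 and 7.90. Its strains overlapped, and the log2 difference was -0.10 (95% interval -0.27 to 0.07, limma adjusted p = 0.840).

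Among the enzymes that consume NAD, Sirt3 lay furthest from 0. Sirt3, the main deacetylase of the mitochondrial matrix, read 9.18, 9.17 and 9.28 in Dahl S and 9.03, 8.97 and 9.00 in the congenic. The congenic arrays were the 3 lowest, a separation that 6.90% of all probe sets showed. The log2 difference was -0.21 (SE 0.06, 95% interval -0.34 to -0.08), with an unadjusted p of 0.00686 and an adjusted p of 0.729 in limma. The 4 arrays of low hybridization-control level gave -0.16 and the high pair -0.31. Parp1, the nuclear poly(ADP-ribose) polymerase that is activated by DNA breaks, read 10.86, 10.77 and 10.73 in Dahl S and 10.69, 10.66 and 10.66 in the congenic. Its strains did not overlap either, yet the log2 difference of -0.12 did not pass (95% interval -0.25 to 0.02, limma adjusted p = 0.781).

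Nadk and Nnt, the members that phosphorylate NAD or exchange reducing power with it, were close to 0. Nadk, the cytosolic NAD kinase, had log2 differences of -0.07 (95% interval -0.24 to 0.11) and -0.01 (95% interval -0.13 to 0.12) on its 2 probe sets, and in both the strains overlapped. On the brighter one Dahl S array 3 read 8.79 and the other 5 arrays 8.53 to 8.63. Nnt, the mitochondrial transhydrogenase, read 13.31, 13.30 and 13.23 in Dahl S and 13.25, 13.16 and 13.25 in the congenic. Its difference was -0.06 (95% interval -0.19 to 0.07, limma adjusted p = 0.868).

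**Figure D2:**
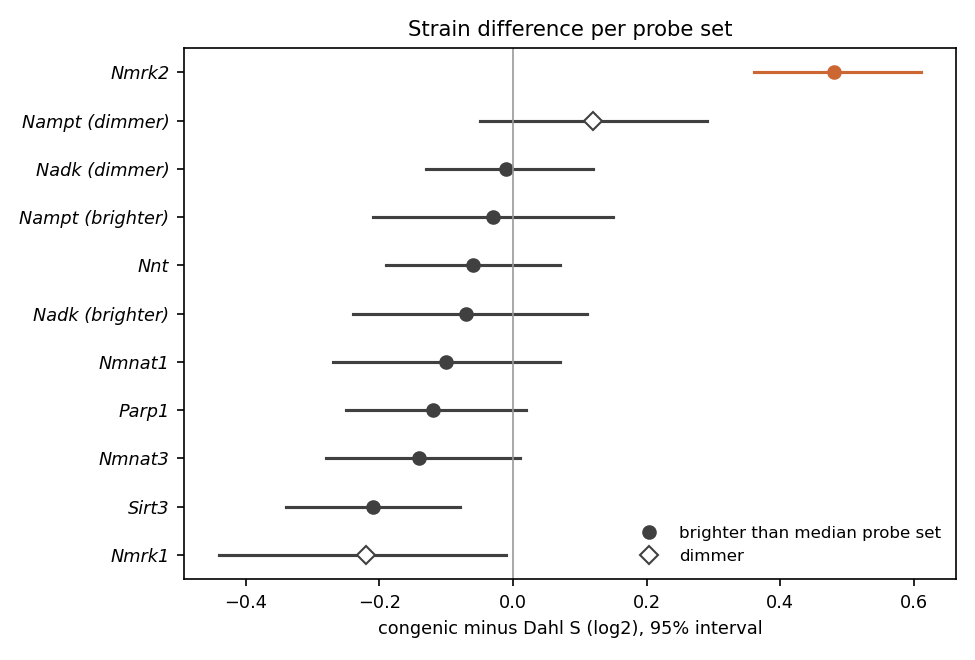
Strain difference of each probe set (congenic minus Dahl S, log2) with its 95% interval from limma. Filled circles are brighter and open diamonds dimmer than the median probe set. Nmrk2, at 0.48, was chosen by this difference, and its interval is drawn as a description only. The other 10 lie between -0.22 and 0.12.

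Counted together, 0 of the 10 probe sets other than Nmrk2 were called by limma after adjustment. At an unadjusted p under 0.05 there were 2 of 10, Sirt3 and Nmrk1, both lower in the congenic, where 6.67% of all probe sets passed in either direction and 3.10% on the lower side. In 3 of the 10, Nmnat3, Sirt3 and Parp1, the congenic arrays were the 3 lowest, against 6.90% of all probe sets, and in 0 of the 10 the 3 highest, against 5.83%. Of the 10, 9 were below 0, with a median of -0.08, while 49.2% of all probe sets were below 0 and the median over all of them was 0.002. With 1 array left out the count of 2 became 1 without Dahl S array 1, congenic array 2 or congenic array 3. Without Dahl S array 3 it was 2 with different genes, since Nmnat3 (unadjusted p = 0.0426 in limma) passed and Nmrk1 (0.138) did not. Nmrk1 was under the threshold in 5 of the 13 alternative settings that test it and Sirt3 in 13 of 14. Parp1 was under it in 3 of 14 and Nmnat3 in 2 of 14. With an intensity trend in the variance prior, and with the ordinary variance, the 2 were Sirt3 and Parp1. The count of 2 became 0 when the 4 low arrays were fitted alone.

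Among other routes to NAD, limma called 0 genes. In the list of the de novo route from tryptophan and the Preiss-Handler route from nicotinic acid, the median log2 difference was -0.01. Of 13 measured genes, 1 had an unadjusted p under 0.05, on the higher side, against 7.03% of all 14217 genes in either direction. The higher gene was Tdo2, the liver enzyme of tryptophan breakdown, on a very dim probe set (mean 3.86, log2 difference 0.32, limma adjusted p = 0.736). Naprt, the entry enzyme for nicotinic acid, read 8.93, 9.08 and 8.92 in Dahl S and 8.88, 8.88 and 8.79 in the congenic, a log2 difference of -0.12 (limma adjusted p = 0.797). In the list of salvage inputs, nucleoside handling and transport, the median was 0.01. Of 13 measured genes, 1 had an unadjusted p under 0.05, on the lower side, against the same 7.03%. That gene was Nudt12, a hydrolase of NADH and NAD caps, at -0.19 (limma adjusted p = 0.736). Slc29a1, a nucleoside transporter that admits nicotinamide riboside, read 9.67 to 9.70 in Dahl S and 9.70 to 9.71 in the congenic, and Pnp, which can split the riboside, differed by -0.02.

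In the NADP list, a kinase and a malic enzyme lay below 0 by as much as Sirt3 without passing after adjustment. Nadk2, the mitochondrial NAD kinase, read 9.35, 9.33 and 9.31 in Dahl S and 9.03, 9.09 and 9.15 in the congenic. Me1, the cytosolic malic enzyme that makes NADPH, read 10.39, 10.44 and 10.46 in Dahl S and 10.19, 10.20 and 10.22 in the congenic. Neither gene had overlapping strains, a separation that 6.90% of all probe sets showed on the lower side. The log2 differences were -0.24 (SE 0.06) and -0.23 (SE 0.05). The unadjusted p was 0.00308 and 0.00295, with the same adjusted p of 0.721 in limma. Of the 5 measured genes these 2 had an unadjusted p under 0.05, against 7.03% of all 14217 genes, and limma called 0. Both genes stayed under that threshold in all 14 alternative settings. The other 3, Pgd, Idh1 and Idh2, had differences from -0.07 to 0.01.

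Of 5 other sirtuins, 0 had an unadjusted p under 0.05, against 7.03% of all genes, and the median was -0.01. In 4 of 14 alternative settings Sirt5 passed that threshold, on the lower side, and in 1 Sirt2 did, on the higher side. Sirt5, a mitochondrial desuccinylase, was the furthest from 0 at -0.12 (limma adjusted p = 0.765), its congenic arrays at 10.99, 11.04 and 10.99 lying below the Dahl S arrays at 11.14, 11.17 and 11.07. Of 14 measured PARP-related and ADP-ribosyltransferase genes, 3 lay above 0 and 11 below, with a median of -0.04. Parp16 (-0.15) and Parp10 (-0.14) had all congenic arrays below Dahl S, as 6.90% of all probe sets did, without passing (limma adjusted p = 0.791 and 0.755). Parp10 was at an unadjusted p under 0.05 in 4 of 14 alternative settings. In the main fit 1 gene of the list passed that threshold, on the higher side, against 7.03% of all genes in either direction. It was Parp9, an interferon-inducible member, at 0.13 (limma adjusted p = 0.747), and with 1 array left out Parp9 passed that threshold only without congenic array 3. Of the glycohydrolases, Sarm1, which splits NAD in injured neurons, differed by 0.11 and Bst1 by 0.03, and Cd38 is not analysed here.

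NADH shuttle and lactate dehydrogenase genes all lay a little below 0. Of the 11, 0 had an unadjusted p under 0.05, against 7.03% of all genes. The 0 became 3 with an intensity trend in the variance prior (Mdh1, Mdh2 and Slc25a11). With the ordinary variance it became 4 (Ldhb, Mdh1, Mdh2 and Got2), all on the lower side in both settings. The median difference was -0.05 in a range of -0.20 to -0.02. The malate-aspartate shuttle genes Slc25a11 (-0.11), Mdh2 (-0.08), Mdh1 (-0.07) and Got2 (-0.05) did not overlap between strains, as 6.90% of all probe sets did not on this side. Slc25a12 (-0.06), Got1 (-0.03) and Slc25a13 (-0.03) of the same shuttle overlapped. The lactate dehydrogenase gene Ldhb (-0.02) did not overlap between strains, with the congenic lower. Gpd1, the cytosolic glycerol phosphate dehydrogenase, which fat cells also express strongly, read 10.24, 10.66 and 11.07 in Dahl S and 10.18, 10.92 and 10.28 in the congenic. The adipocyte marker means on the same arrays were -0.59, 0.12 and 0.57 in Dahl S and -0.19, 0.41 and -0.32 in the congenic, and their part in the Gpd1 values was not tested.

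The median was -0.02 over 13 energy-sensing genes and nuclear regulators linked to Nmrk2. Of the 13, 1 had an unadjusted p under 0.05, against 7.03% of all genes. It was Ppargc1a, the coactivator of mitochondrial biogenesis, at -0.14 (limma adjusted p = 0.736), and with 1 array left out Ppargc1a passed that threshold only without Dahl S array 1. The catalytic AMP kinase subunit genes Prkaa1 and Prkaa2 both differed by -0.02, and Ppara, a nuclear receptor for fatty acids, read 5.54, 5.50 and 5.41 in Dahl S and 5.47, 5.34 and 5.10 in the congenic on a dim probe set (-0.18, limma adjusted p = 0.794). Nmrk2 protein has also been described as a muscle integrin-binding protein. Of 9 integrin and laminin partners, 0 had an unadjusted p under 0.05, against 7.03% of all genes. That count was 1 with an intensity trend in the variance prior and 3 with the ordinary variance, all higher. The median was 0.04, with 7 above 0 and 2 below, among them Itgb1 at 0.04 and Itga7 at -0.06. Itga5 (0.12), the integrin-linked kinase gene Ilk (0.09), Lamc1 (0.08) and Lamb2 (0.05) had all congenic arrays above Dahl S. Over all probe sets 5.83% did. The summed linear signal of the 9 ran from 21488 to 21862 in Dahl S and from 22124 to 22435 in the congenic. The sums of the NADH shuttle, NADP and sirtuin lists did not overlap either, with the congenic lower. They ran from 78010 to 79267, 22306 to 22840 and 3993 to 4125 in Dahl S. In the congenic they ran from 75434 to 76117, 21391 to 21985 and 3873 to 3956. The sums of the other lists overlapped. Over these 9 lists, 6 of 85 measured genes (7.06%) passed that unadjusted threshold, 2 on the higher and 4 on the lower side, against 7.03% of all 14217 genes, and 0 were called by limma. Without congenic array 2 the 6 became 3.

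**Figure D3:**
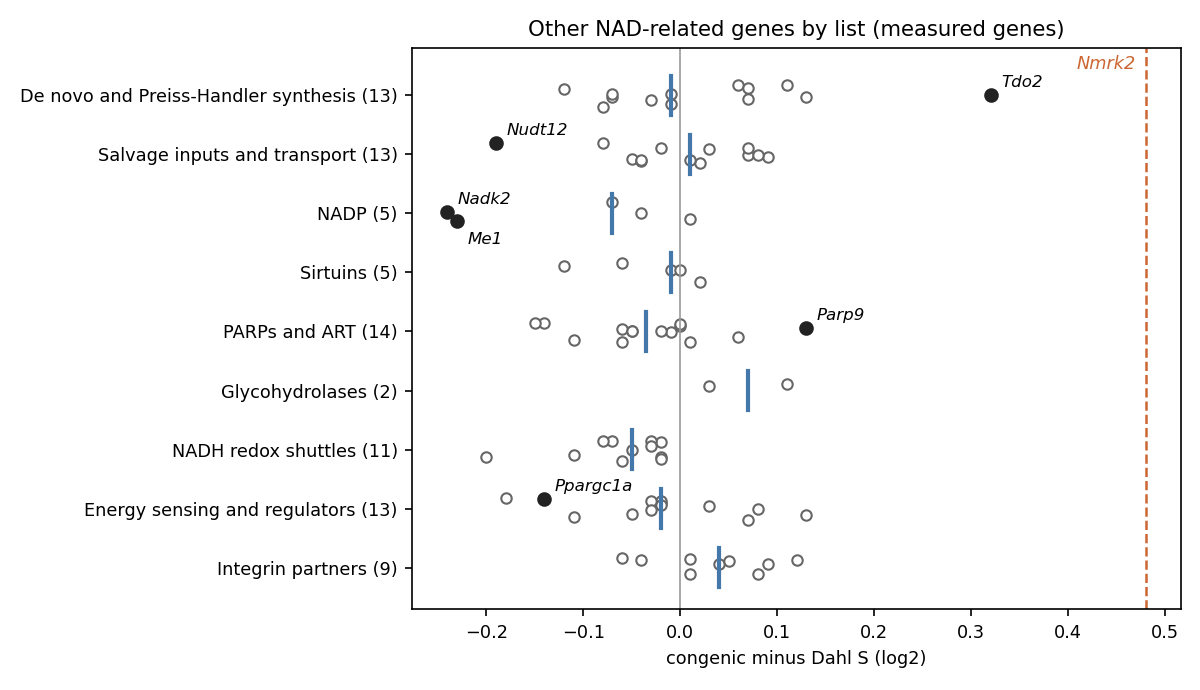
Log2 difference (congenic minus Dahl S) of each measured gene in 9 lists, with the number measured in parentheses. Filled points had an unadjusted p under 0.05, open points did not, short vertical lines are list medians, and the dashed line is Nmrk2 (0.48). No listed gene reaches that line, and Tdo2 is nearest at 0.32.

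The genes whose arrays followed Nmrk2 most closely came from outside the NAD pathway. Likeness was the mean absolute gap between a probe set and Nmrk2 over the 6 arrays, each relative to its own mean, among 12262 brighter probe sets with 1 gene. Irf7, the transcription factor of type I interferon induction, was closest with a gap of 0.036. It read 9.58, 9.64 and 9.45 in Dahl S and 10.06, 9.95 and 10.05 in the congenic. Next were Fbxl22, a muscle F-box protein of the Z-disc (gap 0.067), the cell division gene Cdca3 (0.073), the inhibin alpha subunit gene Inha (0.075) and the ubiquitin-like interferon product Isg15 (0.078). Fbxl22 read 10.62, 10.76 and 10.61 in Dahl S and 11.00, 10.95 and 11.12 in the congenic. None of the 5 overlapped between strains, and limma called 0 of them. The gap of the NAD genes ran from 0.179 for the dimmer Nampt probe set to 0.351 for Nmrk1. Because a gene had to separate the strains to come close, the ranking describes these 6 arrays and says nothing of shared control.

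**Figure D4:**
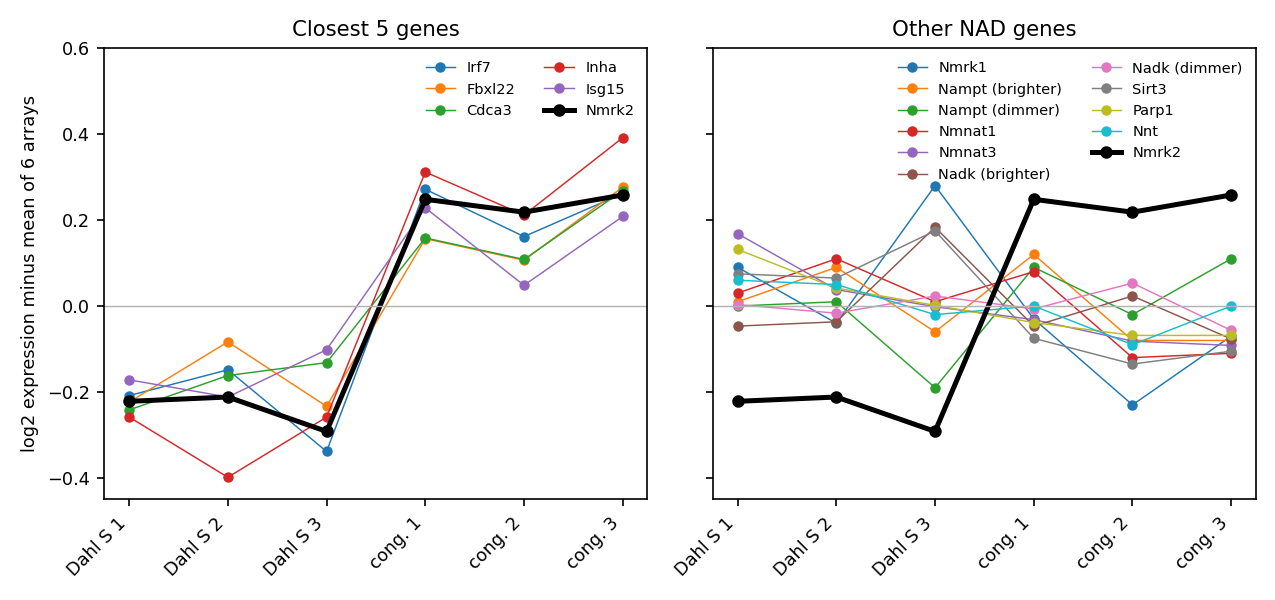
Log2 expression minus the mean over 6 arrays for Nmrk2 (thick black) with the 5 genes closest to it (left) and with the other NAD genes (right). Lines only join the points of a gene, and arrays of a strain have no order. The 5 closest genes step up between the strains with Nmrk2, and the NAD genes do not.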

How the data were processed

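Hearts of both strains were profiled on 6 arrays, 3 per strain. Per the submitters' processing notes, RMA was run, which corrects background, normalizes between chips and summarises probes, and the authors deposited the resulting log2 values. Its version is not stated in the sources used here. RMA shrinks differences of dim probe sets, and the number of arrays limits precision.

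The deposited log2 values were used as they are. After 57 control probe sets were set aside, 31042 were tested with limma 3.58.1 in R 4.3.3 (lmFit, eBayes, strain as the only term), with Benjamini-Hochberg adjustment over all of them. The fit was tested on simulated data. Alternatives were other scalings, variance priors, filters, blocks and each array left out. Genes were named from the platform annotation, with symbols updated through RefSeq (GRCr8) by gene ID. The 20826 probe sets with exactly 1 gene were used for names, and a listed gene is represented by its brightest one. Promoter windows are RefSeq's (GRCr8), found for 8 of 10 members. Up to 4 genes per list with the smallest unadjusted p were named, with called genes. Pnp, Slc29a1, Pgd, Ldhb, Got1, Got2, Gpd1, Slc25a13, Nmnat2, Prkaa1, Prkaa2, Itgb1 and Lamb2 were named beside them after their values were seen. The members, lists and alternatives were chosen with earlier results of these data known. Python 3.11.15 with matplotlib 3.10.9 made the plots.

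Replicates are pools of different rats, so p-values rest on the spread between pools. Except with the ordinary variance, limma combines that spread with a variance prior drawn from all probe sets tested.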

Additional observations from a re-analysis of the deposited data

How the results depend on the processing

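Fits were repeated under 14 alternative settings. The Nmrk2 difference stayed between 0.46 and 0.50 in all 14. It is given as a description, since it chose the gene. The brighter Nampt probe set lay between -0.10 and 0.01 with 1 array left out and changed sign without Dahl S array 2 (0.01), congenic array 2 (0.00) or congenic array 3 (0.00), with an adjusted p of at least 0.898 in all settings. The number of other members at an unadjusted p under 0.05 was 2, and it was 1 with a block for the hybridization-control level, 0 over the 4 low arrays, 3 in the test of brighter probe sets, and 1 to 2 with 1 array left out. With 1 array left out Nmrk1 ran from -0.30 to -0.14 and Sirt3 from -0.23 to -0.17. The count of called probe sets, 11, was 5 with the replicate block, 5 with a block for hybridization-control level, 2 among the 4 low arrays, 0 with the ordinary variance (2074 at an unadjusted p under 0.05) and 5 to 6 with 1 array left out. Same-numbered arrays share only a number (their deviations from the strain means correlated at -0.073, -0.058 and -0.183). Under the replicate block the number of other members stayed at 2, the PARP count went from 1 to 0 as Parp9 was lost, and Ppara replaced Ppargc1a in the energy list. The count of listed genes at an unadjusted p under 0.05, 6, was repeated after the data were seen. It was 5 with the replicate block, 11 with an intensity trend in the variance prior, 14 with the ordinary variance and 3 to 7 with 1 array left out. For 43 single results, 11 of 596 alternative values changed sign and 0 were called. These were Nadk (brighter probe set -0.10 to 0.01, dimmer -0.03 to 0.02 with 1 array left out, and 0.01 with quantile normalization), Enpp1 (-0.02 among the low arrays), Sirt6 (0.02 with quantile normalization, -0.02 to 0.03 with 1 array left out) and Bst1 (-0.08 to 0.18 with 1 array left out). The 2 dim probe sets, Nmrk1 and the dimmer Nampt, are not in the test of brighter probe sets. With 3 arrays per strain, a fall of 0.1 lies within the intervals of most members. A rise of 0.1 lies within those of the Nampt and Nadk probe sets only.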
